A study of Mus musculus with 72 samples.

Results

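The genes described here are 9 immediate early genes, taken by symbol from the gene expression tables of a study of mouse macrophages: Egr1, Egr2, Fos, Fosb, Jun, Junb, Atf3, Ier2 and Ier3. They are 9 of 18472 genes listed in at least 1 of the 3 deposited tables. The table of marrow-derived macrophages lists 7 of them, without Egr1 and Fosb, and the table of RAW264.7 cells treated with dexamethasone also lists 7, without Egr2 and Fosb. The table of the interferon experiment lists all 9, of which Egr1 and Fosb stayed too low to be tested. Levels are given as TPM, a transcript abundance scaled to a fixed library total. It corrects for transcript length, so that levels can be set side by side between genes of 1 table.

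Immediate early genes are switched on within minutes of a stimulus by factors already present in the cell, and their messenger RNAs are short-lived. Fos, Fosb, Jun and Junb encode basic leucine zipper proteins that pair to form the transcription factor AP-1, and Atf3 encodes a relative that in macrophages restrains inflammatory genes. Egr1 and Egr2 encode zinc finger transcription factors. Ier2 and Ier3 were named for their immediate early response. Ier3 encodes a small regulator of cell survival and signalling rather than a classical DNA-binding factor, so the label transcription factor does not cover every member. In macrophages, Toll-like receptor signalling through MAP kinases and NF-kB induces these genes as an early wave, and every treatment with lipopolysaccharide here lasted 6 h, well after that wave.

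The 72 libraries form 24 groups of 3. Marrow-derived macrophages of C57BL/6J mice were grown for 7 days with L929 supernatant and treated in serum-free medium. Their controls are titled wild type but carry the genotype Setd1bHet, and they are compared with cells labelled Setd1bKO. RAW264.7 cells, a male BALB/c macrophage line kept in medium with serum, were either wild type or labelled Setd1aDel/+, a heterozygous deletion. Setd1a and Setd1b encode histone H3 lysine 4 methyltransferases. Vehicle groups received 0.1% ethanol and D-PBS, LPS groups received ethanol and 100 ng/ml lipopolysaccharide (LPS) for 6 h, and Dex plus LPS groups received 1 uM dexamethasone (Dex), a synthetic glucocorticoid, in place of ethanol. Marrow-derived cells had Dex or ethanol for 16 h. RAW264.7 cells had it for 16 h in a first experiment and 6 h in a second, where Dex alone was also given. In a further experiment, RAW264.7 cells of both genotypes received LPS with or without 10 ng/ml interferon beta (IFNB1) for 6 h. Animal ages, the part of Setd1b that was deleted, whether the deletion line is 1 clone, and whether replicates were separate animals or cultures are not stated in the labels, which also disagree on the sex of the mice. The p-values therefore measure the spread between libraries, which may be technical.

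Listed TPM summed to 837032 to 912839 per library, the lowest correlation between replicates was 0.983, and read depth is unknown because the tables hold no counts. All 8 macrophage markers were listed in marrow-derived cells and 7 of 8 in the RAW264.7 Dex table, while of 9 neutrophil markers only S100a8 was listed in either. The T cell marker Lat (up to 15.2 TPM) and the stromal marker Pdgfrb (up to 10.7 TPM) were also listed in marrow-derived cells. Adgre1 was at 115 TPM in Setd1bKO-labelled vehicle cells against 296 TPM in controls. Csf1r, Cd68, Lyz2 and Itgam were lower too, and all of them were lower with LPS and with Dex plus LPS. The part of these differences in the member results was not tested. Setd1a was lower in Setd1aDel cells in every treatment of the 16 h experiment (log2 differences of -0.61 to -0.70) and of the IFNB1 experiment (-0.56 and -1.10), whereas at 6 h the differences of -0.38 to -0.62 were not called. Setd1b did not fall in the cells labelled Setd1bKO. It was 10.1 against 4.54 TPM in vehicle (log2 difference 1.00 ± 0.21 SE, adjusted p = 0.0024), and a value for the whole gene does not check a deletion of part of it. The glucocorticoid target Tsc22d3 was higher with Dex plus LPS than with LPS in every experiment with Dex, by 1.36 to 4.95 on the log2 scale.

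Promoter stretches from RefSeq's table are shown for Fos, Jun, Junb, Atf3, Egr2 and Ier3. The sequence upstream of members that LPS raised can so be read beside that of members it lowered. Egr1 and Ier2 were also tested, but their stretches are not shown or described here. Each is the 150 bases before a start site, 5′ to 3′ on the strand of the gene, in build GRCm38.p6. Capitals mark matches on either strand to TGACG (the core of the cyclic AMP response element), TGACNTCA, TGANTCA (the AP-1 site), the CArG box that serum response factor binds, or the kappa B element. Egr2 has 5 listed starts, of which the middle one is shown. The starts used for Egr2, Atf3 and Ier3 lie inside the longer gene models of GENCODE vM21. The Ier3 model starts at 35821684, so the last bases of its stretch lie within it.
Fos, chr12:85473740-85473889, plus strand: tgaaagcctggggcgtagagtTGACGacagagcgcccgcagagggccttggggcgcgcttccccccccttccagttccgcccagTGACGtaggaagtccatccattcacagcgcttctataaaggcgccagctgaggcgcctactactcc
Jun, chr4:95052223-95052372, minus strand: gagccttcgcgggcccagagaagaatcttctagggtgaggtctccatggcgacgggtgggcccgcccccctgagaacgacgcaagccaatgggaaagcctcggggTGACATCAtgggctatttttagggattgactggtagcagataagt
Junb, chr8:84978749-84978898, minus strand: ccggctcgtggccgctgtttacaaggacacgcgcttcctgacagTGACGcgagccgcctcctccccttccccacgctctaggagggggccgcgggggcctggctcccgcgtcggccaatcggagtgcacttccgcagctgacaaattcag
Atf3, chr1:191183334-191183483, minus strand: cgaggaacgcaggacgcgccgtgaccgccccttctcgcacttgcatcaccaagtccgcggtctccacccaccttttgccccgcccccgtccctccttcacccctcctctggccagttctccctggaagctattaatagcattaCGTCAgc
Egr2, chr10:67537719-67537868, plus strand: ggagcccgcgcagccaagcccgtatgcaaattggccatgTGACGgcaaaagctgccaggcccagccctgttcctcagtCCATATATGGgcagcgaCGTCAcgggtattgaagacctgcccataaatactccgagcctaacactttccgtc
Ier3, chr17:35821563-35821712, plus strand: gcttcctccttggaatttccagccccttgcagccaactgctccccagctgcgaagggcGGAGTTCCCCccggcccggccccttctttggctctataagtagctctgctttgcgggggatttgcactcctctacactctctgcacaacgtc
The TGACG core occurs in the stretches of Fos and Egr2 at 2 places each and in those of Junb and Atf3 at 1. Fosb, which was not tested and is not shown, holds it at 1 place. The core is present in 13.3% of all 32851 promoter stretches of this length. Jun carries TGACNTCA from 45 bases before its start, a motif found in 5.7% of all stretches. Egr2 carries a CArG box from 72 bases before its start (0.916% of all stretches), and Ier3 a kappa B match from 92 bases before its start (4.6%). TGANTCA, present in 4.24% of all stretches, occurs in none of these. TGACG lies within TGACNTCA where the open position is G, and a match is a description of letters, not of binding. In GENCODE vM21 the Jun, Junb and Ier2 transcripts each have 1 exon, and Ier2 (chr8:84661331-84662852) lies on the same chromosome and strand as Junb (chr8:84974484-84978718).

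In control marrow-derived macrophages, 6 h of LPS separated these genes into a rising and a falling set. Ier3, Junb and Ier2 were higher, and Fos, Jun, Egr2 and Atf3 were lower. All 7 listed members were called, as were 85.3% of all 9159 genes tested by limma at a Benjamini-Hochberg adjusted p under 0.05, so the calls themselves do not set these genes apart. Fold changes below are on the log2(TPM + 1) scale, with standard errors from the model.

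Fos was at 31.0, 27.6 and 29.7 TPM in the vehicle libraries and at 2.73, 1.91 and 2.72 TPM with LPS. The groups were far apart, and the log2 change was -3.15 ± 0.11 SE (adjusted p = 1.3e-13). Jun, its partner in AP-1, was at 66.7, 70.3 and 74.0 TPM in vehicle and at 12.9, 10.8 and 11.6 TPM with LPS (log2 change -2.48 ± 0.07, adjusted p = 9.3e-15). Egr2 was at 25.2, 26.2 and 25.3 TPM against 7.01, 6.75 and 8.03 TPM (log2 change -1.69 ± 0.09, adjusted p = 4.3e-11). These 3 members were thus low in the same libraries in which Ier3, Junb and Ier2 stood high. Atf3 was the most abundant member before stimulation, at 431, 425 and 414 TPM, and was at 261, 266 and 255 TPM with LPS (log2 change -0.70 ± 0.05, adjusted p = 6.4e-10). In bulk RNA, a lower level from fewer expressing cells and one from less RNA per cell cannot be told apart.

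Of the rising members, Ier3 and Ier2 started below the other members and Junb did not. Ier3 was at 7.83, 5.82 and 6.29 TPM in vehicle and at 182, 162 and 199 TPM with LPS, a 27.2-fold ratio of means (log2 change 4.58 ± 0.10, adjusted p = 2.8e-16). Junb was at 60.1 to 61.3 TPM against 189.8 to 221 TPM (log2 change 1.74 ± 0.07, adjusted p = 1.8e-12). Ier2 was at 9.86 to 11.8 TPM against 30.3 to 32.5 TPM (log2 change 1.44 ± 0.12, adjusted p = 1.4e-08). Junb, which can replace Jun in AP-1 dimers, thus exceeded Jun after LPS, while Jun was the higher of the pair before it. The median change of all genes was -0.49 and became -0.0034 after median-of-ratios scaling, which moved the members up with it. After scaling, Fos was at -2.69, Jun at -1.97, Egr2 at -1.19 and Atf3 at -0.16, and Ier3 at 5.08, Junb at 2.27 and Ier2 at 1.94.

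Cells labelled Setd1bKO gave the same 3 higher and 4 lower members, with 83.1% of all genes called. Ier3 went from 5.69 to 7.13 TPM in vehicle to 508 to 558 TPM with LPS, an 83.2-fold ratio (log2 change 6.17 ± 0.10). Fos fell by 2.68 and Jun by 1.61 on the log2 scale. The small decreases of Egr2 (-0.35 ± 0.09) and Atf3 (-0.21 ± 0.05) rested on the scaling: with median-of-ratios scaling they became 0.02 (not called) and 0.19 (adjusted p = 0.0034). Without replicate 2 of the vehicle group, Egr2 was at -0.22.

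**Figure D1:**
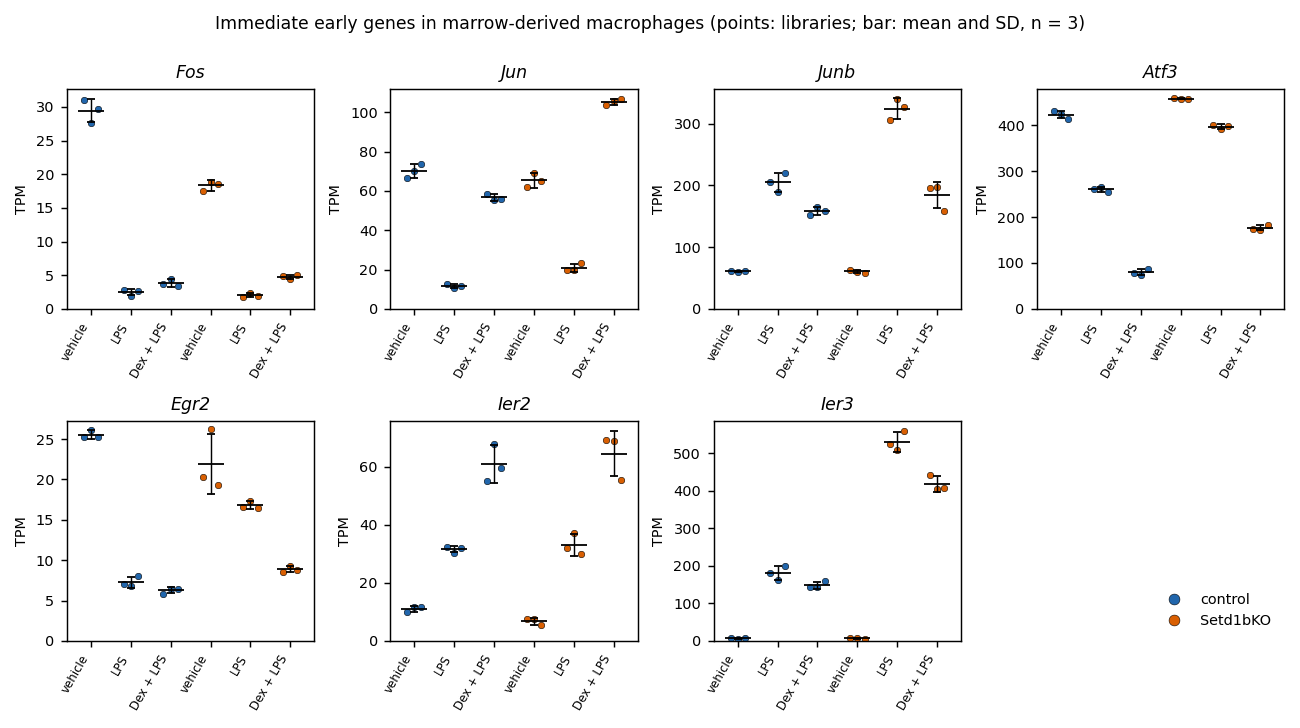
TPM of the 7 listed members in marrow-derived macrophages, 1 panel per gene, with 3 libraries per group as points and the mean and SD as bars, control in blue and Setd1bKO in orange. Fos stays below 5 TPM in every LPS library while Ier3 rises from below 8 TPM to 142 TPM or more in all libraries with LPS.

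The difference between the genotypes' LPS responses was tested directly. All 7 members had a higher response in cells labelled Setd1bKO, against 16.4% of all genes called in that direction. The differences were 1.60 ± 0.13 for Ier3 (adjusted p = 7.5e-07), 1.33 ± 0.13 for Egr2, 0.88 ± 0.10 for Jun, 0.70 ± 0.17 for Ier2, 0.65 ± 0.10 for Junb, 0.49 ± 0.07 for Atf3 and 0.47 ± 0.15 for Fos (adjusted p = 0.036). For 3 members this was a larger increase and for 4 a smaller decrease. The median difference of all genes was 0.114, and -0.0122 after scaling; the share of higher among called genes went from 75.2% to 45.5%. Under scaling the members stayed between 0.35 and 1.46, and the call for Fos was lost (0.35, adjusted p = 0.16). The Fos call was also lost with a pseudocount of 0.1 (adjusted p = 0.14) and without any of 7 libraries: control vehicle replicate 1 or 3, control LPS replicate 2, Setd1bKO vehicle replicate 1, 2 or 3, or Setd1bKO LPS replicate 2, with values of 0.35 to 0.49.

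Direct comparison of the genotypes showed where each member differed. Ier3, Egr2, Jun, Junb and Atf3 were called under LPS and not in vehicle, and Fos and Ier2 in vehicle and not under LPS. In vehicle, 2 of 7 members were called, both lower in cells labelled Setd1bKO, against 25.3% of all genes. Fos was at 17.5, 18.9 and 18.6 TPM against 31.0, 27.6 and 29.7 TPM in controls (log2 difference -0.65 ± 0.11, adjusted p = 0.00027), and Ier2 was at 5.40 to 7.58 TPM against 9.86 to 11.8 TPM (-0.64 ± 0.12, adjusted p = 0.001). Under LPS, 5 of 7 were higher, against 29% of all genes called in that direction. Ier3 was at 523, 508 and 558 TPM against 182, 162 and 199 TPM (log2 difference 1.55 ± 0.10, adjusted p = 3.6e-09), and Egr2 was at 16.6, 17.4 and 16.5 TPM against 7.01, 6.75 and 8.03 TPM (1.11 ± 0.09, adjusted p = 9.3e-08). No library of one genotype overlapped the other for either gene, as was the case for 52.2% of all genes. Jun (0.77 ± 0.07), Junb (0.66 ± 0.07) and Atf3 (0.61 ± 0.05) were also higher, while Fos (-0.18, adjusted p = 0.18) and Ier2 (0.05, adjusted p = 0.75) were not called. With Dex plus LPS, 5 of 7 were again higher, against 23.5% of all genes in that direction. Atf3 was at 175, 172 and 184 TPM against 77.4, 74.2 and 87.5 TPM (log2 difference 1.14 ± 0.05, adjusted p = 2.4e-11), and Jun was at 104, 106 and 107 TPM against 58.6, 55.6 and 56.1 TPM (0.88 ± 0.07). Junb was weak (0.21 ± 0.07, adjusted p = 0.037), its groups overlapped, and its call was lost after scaling (0.12), in the compared groups alone, and without control Dex plus LPS replicate 1 or 3 or Setd1bKO Dex plus LPS replicate 1 or 2 (0.16 to 0.21). Of 10 heat shock and handling stress genes, 1 was higher and 6 were lower between the same LPS groups, against 29% and 12.4% of all genes, and their part in these results was not tested. All of these directions are relative to libraries whose Setd1b level does not check their label.

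Dex added to LPS shifted the same genes in marrow-derived macrophages without returning them to vehicle levels as a set. In control cells 3 of 7 were higher and 3 lower, with 59.9% of all genes called, and in cells labelled Setd1bKO 3 were higher and 4 lower, with 52.7% called. Jun was at 58.6, 55.6 and 56.1 TPM with Dex plus LPS against 12.9, 10.8 and 11.6 TPM with LPS in controls (log2 change 2.18 ± 0.07, adjusted p = 1.1e-12), and at 104, 106 and 107 against 19.8, 19.5 and 23.2 TPM in cells labelled Setd1bKO (2.29 ± 0.07, adjusted p = 1.2e-12). No Dex plus LPS library came near an LPS library for this gene. Over all genes, these groups did not overlap for 67.2% in controls and 54% in cells labelled Setd1bKO. Atf3 moved the opposite way, from 261, 266 and 255 TPM to 77.4, 74.2 and 87.5 TPM in controls (-1.70 ± 0.05, adjusted p = 2.4e-13) and from 401, 391 and 399 TPM to 175, 172 and 184 TPM in cells labelled Setd1bKO (-1.16 ± 0.05, adjusted p = 3.1e-11). Jun, which LPS had lowered, was thus raised by Dex, whereas Atf3, which LPS had also lowered in controls, was lowered further.

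Ier2 was higher with Dex in both genotypes (0.92 ± 0.12 and 0.94 ± 0.12), at 55.0 to 67.8 TPM against 30.3 to 32.5 TPM in controls. It was the member that both LPS and Dex raised. Fos was higher too (0.48 ± 0.11 and 0.93 ± 0.11) but stayed at 3.35 to 4.98 TPM, well under its vehicle level. Junb was lower (-0.37 ± 0.07 and -0.82 ± 0.07), and after scaling its decrease in controls was larger (-0.59). Ier3 was slightly lower (-0.29 ± 0.10 and -0.34 ± 0.10, or -0.50 and -0.52 after scaling). Its call in controls was lost without LPS replicate 3 or Dex plus LPS replicate 1 or 2 (-0.22 to -0.26). Egr2 was called lower in cells labelled Setd1bKO (-0.85 ± 0.09) and not in controls (-0.18, adjusted p = 0.091), though scaling brought the control value to -0.38 (adjusted p = 0.003). The authors' processing, whose notes name DESeq2, gave Egr2 adjusted p-values of 0.0018 in controls and 4.96e-20 in cells labelled Setd1bKO. Their deposited table gives Egr2 log2 fold changes of -0.44 and -1.10 for these. It also gives 2.06 and 2.15 for Jun and -1.93 and -1.35 for Atf3. The median change of all genes was 0.181 in controls and 0.151 in cells labelled Setd1bKO, and about 0 after scaling.

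The Dex responses of the genotypes differed for 3 of 7 members, against 6.21% of all genes. Atf3 fell less in cells labelled Setd1bKO (difference 0.54 ± 0.07, adjusted p = 0.00012), Egr2 fell more (-0.66 ± 0.13, adjusted p = 0.0045) and Junb fell more (-0.45 ± 0.10, adjusted p = 0.014, or 0.051 in the compared groups alone). The difference for Jun was 0.11 ± 0.10 (adjusted p = 0.61). Dusp1, a MAP kinase phosphatase induced by glucocorticoids, went with Dex from 39.8 to 291 TPM in controls and from 29.4 to 348 TPM in cells labelled Setd1bKO.

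For several members the direction of the LPS response in RAW264.7 cells was not that in the primary cells, a contrast that was not tested. Cell type, medium and genotype of the controls all differ and cannot be told apart. In the 16 h experiment, wild-type cells had all 7 listed members higher with LPS, against 17.4% of all genes called in that direction, and Setd1aDel cells had 6 of 7 higher, against 18.4%. In the 6 h experiment, 6 of 7 were higher in wild-type cells, against 19.5% of all genes, and 6 of 7 in Setd1aDel cells, against 20.4%. Scaling changed that background, because the share of higher among called genes went from 20.9% to 50.4% in the 16 h wild-type comparison and from 27.1% to 50.3% at 6 h. Egr1 reached 1 TPM only with LPS in the 16 h experiment and only in wild-type cells in the 6 h experiment, so it entered the tests through the groups in which it was high.

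Ier3 was the most abundant member after LPS. In the 16 h experiment it went from 64.7, 65.5 and 52.9 TPM to 1435, 1342 and 1589.6 TPM in wild-type cells (log2 change 4.56 ± 0.10) and from 25.9, 27.2 and 30.8 TPM to 977, 1116 and 1209 TPM in Setd1aDel cells (5.25 ± 0.10). In the 6 h experiment it went from 50.2 to 63.1 TPM to 526 to 548 TPM in wild-type cells (3.23 ± 0.09). Atf3 was low in these cells before stimulation, at 2.04, 2.31 and 2.75 TPM in wild-type vehicle of the 16 h experiment, and was at 26.6, 27.0 and 26.6 TPM with LPS (3.05 ± 0.12, adjusted p = 1e-12). Before scaling, this was the reverse of its direction in marrow-derived cells, where it started at 414 TPM or more. After scaling, Atf3 in marrow-derived cells was at -0.16 in controls and at 0.19 in cells labelled Setd1bKO. The contrast between tables was not tested. Junb rose by 2.60 and Ier2 by 2.12 on the log2 scale in wild-type cells at 16 h, and by 1.30 and 0.95 at 6 h. Jun rose by 0.63 and 0.45, or by 1.02 and 0.70 after scaling, again opposite to the marrow-derived cells.

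The response of Fos depended on genotype and experiment: it rose in 16 h wild-type cells, fell in 16 h Setd1aDel cells, rose slightly in 6 h Setd1aDel cells and was called in 6 h wild-type cells only after scaling. In wild-type cells of the 16 h experiment it was at 5.50, 5.42 and 4.59 TPM in vehicle and at 24.3, 21.9 and 23.3 TPM with LPS (log2 change 1.97 ± 0.07, adjusted p = 6.8e-13). In Setd1aDel cells it was at 27.6, 29.6 and 28.5 TPM in vehicle and at 10.3, 12.9 and 12.5 TPM with LPS (-1.20 ± 0.07, adjusted p = 2.9e-10, or -0.78 after scaling). The genotypes' responses were therefore opposite, with a difference of -3.17 ± 0.10 (adjusted p = 4.4e-12). In the 6 h experiment wild-type cells had 22.2, 23.6 and 22.2 TPM in vehicle and 22.5, 22.1 and 21.7 TPM with LPS (-0.03, adjusted p = 0.65, reversed to 0.22 with adjusted p = 0.0046 after scaling). Setd1aDel cells had 13.7, 14.5 and 15.1 against 17.2, 17.5 and 18.3 TPM (0.28 ± 0.06, adjusted p = 0.00088, or 0.48 after scaling).

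**Figure D2:**
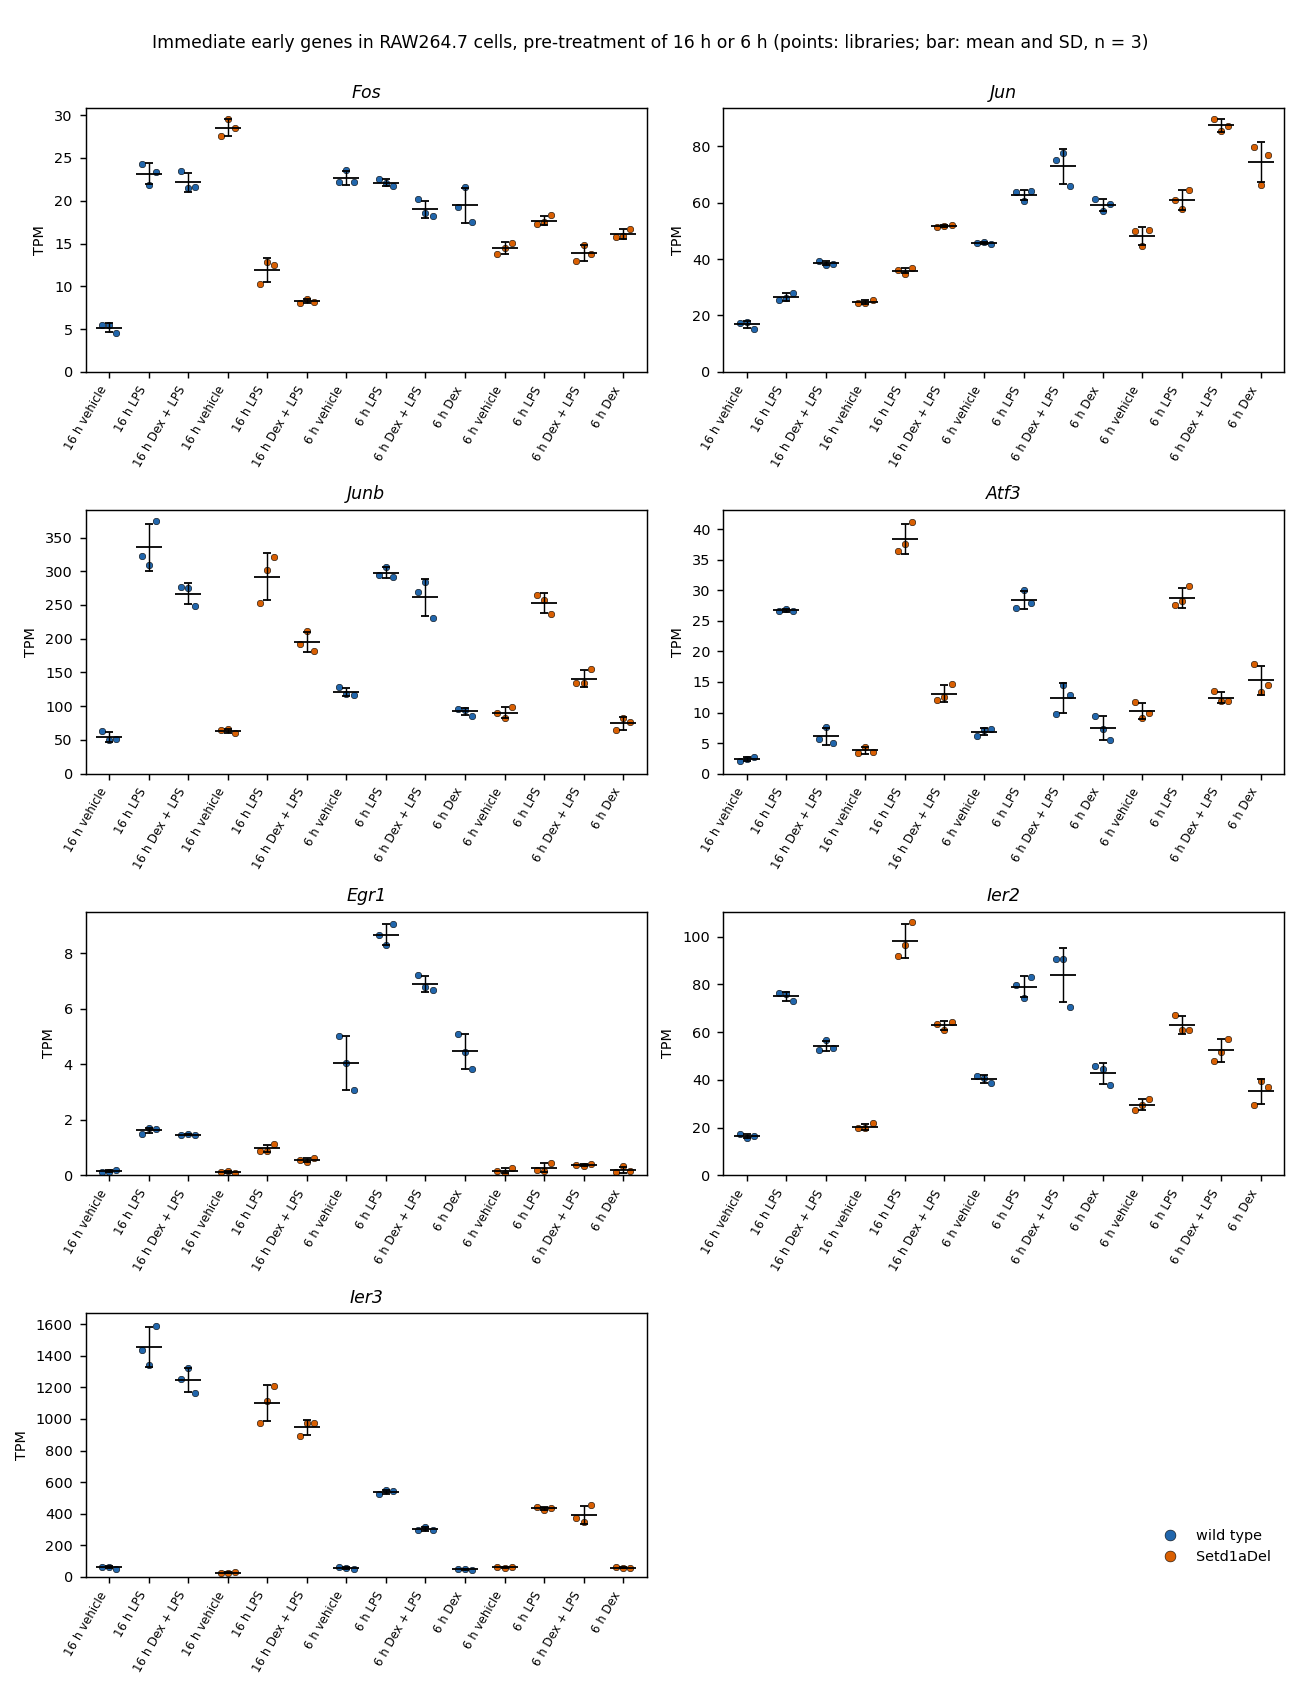
TPM of the 7 listed members in RAW264.7 cells, 1 panel per gene, for the 16 h groups (left 6 positions) and 6 h groups (right 8 positions), wild type in blue and Setd1aDel in orange, with 3 libraries per group as points and the mean and SD as bars. Fos in the 16 h vehicle groups lies at 4.59 to 5.50 TPM in wild type and 27.6 to 29.6 TPM in Setd1aDel, and Egr1 in the 6 h groups lies above 3 TPM in wild type and below 0.5 TPM in Setd1aDel.

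The LPS responses of the genotypes differed for 4 of 7 members at 16 h, against 33.4% of all genes, and for 1 of 7 at 6 h, against 5.6%. Besides Fos, the 16 h differences were 0.69 ± 0.13 for Ier3 (adjusted p = 0.0009), -0.37 ± 0.08 for Egr1 and -0.43 ± 0.14 for Junb. The Junb call was lost after scaling (-0.40), in the compared groups alone, and without wild-type vehicle replicate 2 or 3, wild-type LPS replicate 3, Setd1aDel vehicle replicate 1 or 2, or Setd1aDel LPS replicate 1 (-0.33 to -0.43). With a pseudocount of 0.1 the Egr1 call was also lost (adjusted p = 0.069). At 6 h only Egr1 was called (-0.84 ± 0.17, adjusted p = 0.005), and with a pseudocount of 0.1 this call was lost (-0.65, adjusted p = 0.42).

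Dex acted on few members in RAW264.7 cells in the same way in every group. Atf3 was lower with Dex plus LPS than with LPS in both genotypes and both experiments, and Jun was higher. In wild-type cells of the 16 h experiment 1 of 7 members was higher and 3 lower, with 47.6% of all genes called, and in Setd1aDel cells 1 was higher and 5 lower, with 44.7%. At 6 h, 1 was higher and 3 lower in wild-type cells, with 25.3% of all genes called, and 1 was higher and 3 lower in Setd1aDel cells, with 32.9%. Atf3 was at 5.70, 7.59 and 4.97 TPM with Dex plus LPS against 26.6, 27.0 and 26.6 TPM with LPS in wild-type cells at 16 h (log2 change -1.99 ± 0.12, adjusted p = 2.9e-09). At 6 h it was at 9.69, 14.4 and 12.9 TPM against 27.2, 30.0 and 27.9 TPM (-1.15 ± 0.15, adjusted p = 7.3e-06). In Setd1aDel cells the changes were -1.49 ± 0.12 and -1.15 ± 0.15. No library with Dex overlapped a library with LPS alone in any of these pairs. Over all genes this held for 57.3% in wild-type and 50.8% in Setd1aDel cells at 16 h. At 6 h it held for 40.8% and 40.7%.

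Jun was at 39.3, 37.8 and 38.4 TPM with Dex plus LPS against 25.3, 26.2 and 28.1 TPM with LPS in wild-type cells at 16 h (0.52 ± 0.05, adjusted p = 5e-07), and the change in Setd1aDel cells was also 0.52 ± 0.05. At 6 h it was 0.51 ± 0.07 in Setd1aDel cells. In wild-type cells at 6 h it was 0.21 ± 0.07 (adjusted p = 0.028). That call was lost after scaling (0.17), in the compared groups alone, and without LPS replicate 1 or 2 or Dex plus LPS replicate 1 or 2 (0.16 to 0.22). The authors' adjusted p for it, from processing that names DESeq2, was 0.081. Ier2 was lower at 16 h (-0.46 ± 0.05 and -0.63 ± 0.05), the opposite of its Dex response in marrow-derived cells, and at 6 h it was not called (0.08 and -0.27, the latter -0.33 and called after scaling). The same authors' processing gave an adjusted p of 0.030 for the latter, in Setd1aDel cells. Ier3 was called lower in wild-type cells at 6 h (-0.83 ± 0.09), where it was at 295 to 317 TPM against 526 to 548 TPM. Its changes in the other 3 groups were -0.22, -0.21 and -0.15 and were not called, although scaling brought the 16 h values to -0.33 and -0.27, both called. The authors' DESeq2-based adjusted p-values for Ier3 at 16 h were 0.0021 in wild-type and 0.014 in Setd1aDel cells. Junb was lower in 3 of the 4 groups (-0.32 ± 0.10, -0.57 ± 0.10 and -0.84 ± 0.09), with the first of these, in wild-type cells at 16 h, no longer called without LPS replicate 3 (-0.24) or Dex plus LPS replicate 3 (-0.27). Fos was lower in Setd1aDel cells (-0.47 ± 0.07 and -0.33 ± 0.06). In wild-type cells at 6 h (-0.21 ± 0.06, adjusted p = 0.022), its call was lost without LPS replicate 1 or 2 or Dex plus LPS replicate 2 or 3 (-0.18 to -0.21). Egr1 was lower in Setd1aDel cells at 16 h (-0.34 ± 0.06, or -0.71 with a pseudocount of 0.1).

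**Figure D3:**
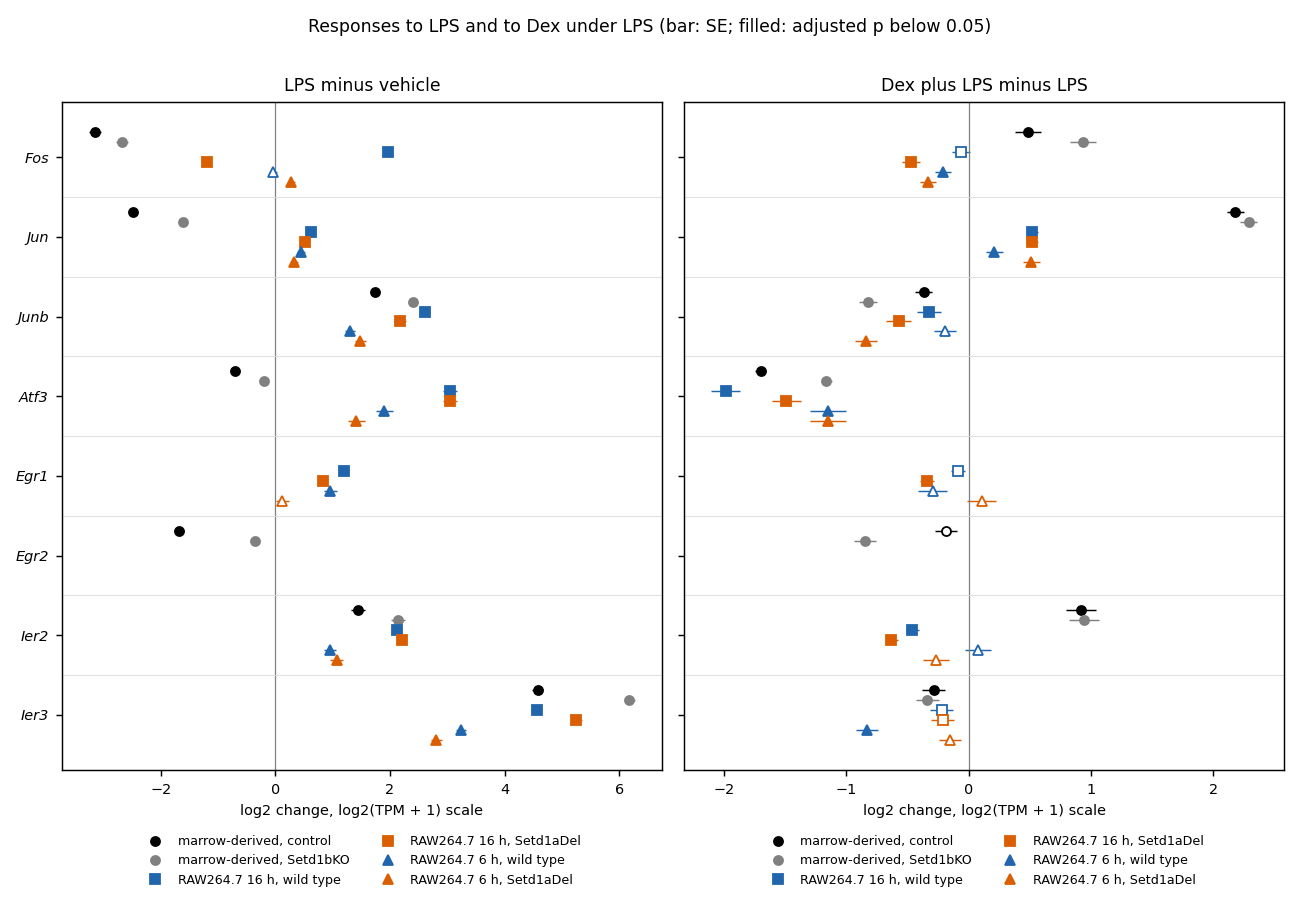
Log2 changes with SE of 8 members for LPS minus vehicle (left) and Dex plus LPS minus LPS (right) in 6 cell groups, filled where the adjusted p was below 0.05. In the left panel Fos, Jun and Atf3 lie below 0 in marrow-derived cells and Atf3 and Jun above 0 in RAW264.7 cells, and in the right panel Atf3 lies between -1.15 and -1.99 and Jun between 0.21 and 2.29 in all 6 groups. After median-of-ratios scaling Atf3 under LPS turned to 0.19 in cells labelled Setd1bKO.

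Dex was also given for 6 h without LPS, against vehicle. In wild-type cells 1 of 7 members was higher and 2 lower, with 36.8% of all genes called, and in Setd1aDel cells 2 were higher and 1 lower, with 30.2%. Jun was at 61.3, 56.9 and 59.4 TPM with Dex against 45.7, 46.2 and 45.4 TPM in wild-type vehicle (log2 change 0.36 ± 0.07, adjusted p = 0.00029), and the change in Setd1aDel cells was 0.61 ± 0.07. Junb was lower (-0.38 ± 0.09 and -0.28 ± 0.09). The Junb call in Setd1aDel cells was lost in the compared groups alone and without vehicle replicate 1 or 3 or Dex replicate 1 (-0.17 to -0.27). Atf3, which Dex lowered under LPS, was at 9.51, 7.22 and 5.57 TPM with Dex against 6.17, 7.15 and 7.34 TPM in wild-type vehicle (0.07, adjusted p = 0.74). In Setd1aDel cells it was higher (0.53 ± 0.15, adjusted p = 0.011), a call lost without vehicle replicate 2 (0.45) or Dex replicate 1 (0.41). Fos in wild-type cells was lower (-0.22 ± 0.06, adjusted p = 0.013), a call lost in the compared groups alone and without vehicle replicate 2 (-0.19) or Dex replicate 3 (-0.15).

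The effect of Dex under LPS minus that of Dex alone was called for 2 of 7 members in wild-type cells, against 30.4% of all genes, and for 4 of 7 in Setd1aDel cells, against 30.1%. For Atf3 it was -1.23 ± 0.21 in wild-type (adjusted p = 0.0002) and -1.68 ± 0.21 in Setd1aDel cells (adjusted p = 5.2e-06). For Jun it was -0.15 ± 0.10 and -0.10 ± 0.10, neither called. Atf3 was thus lower with Dex where LPS was present and was not lower with Dex alone in either genotype, and no such difference was detected for the raising of Jun. Ier3 was called in wild-type cells (-0.63 ± 0.13), and Junb (-0.57 ± 0.13), Fos (-0.48 ± 0.09) and Ier2 (-0.50 ± 0.15, lost without Setd1aDel Dex replicate 2 at -0.42) in Setd1aDel cells. The genotypes' Dex responses under LPS differed for 1 of 7 members at 16 h, against 10.6% of all genes (Fos, -0.41 ± 0.10, lost without wild-type LPS replicate 2, wild-type Dex plus LPS replicate 1 or Setd1aDel LPS replicate 2, at -0.35 to -0.37). At 6 h they differed for 2 of 7, against 5.29% (Junb, -0.65 ± 0.13, and Ier3, 0.68 ± 0.13). For Dex alone limma called 0 of 7 members, against 0.29% of all genes. An unadjusted limma p was under 0.05 for 3 of 7, but the share of all genes under it was not counted, so that number cannot be judged.

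Among these genes, the largest difference between Setd1aDel and wild-type RAW264.7 cells was at Egr1, in the 6 h experiment. There Egr1 was at 5.01, 4.04 and 3.07 TPM in wild-type vehicle and 0.143, 0.0932 and 0.264 TPM in Setd1aDel vehicle (log2 difference -2.10 ± 0.12, adjusted p = 1.6e-10, or -3.98 with a pseudocount of 0.1). With LPS it was at 8.68, 8.29 and 9.05 TPM against 0.194, 0.170 and 0.458 TPM (-2.93 ± 0.12, adjusted p = 9.2e-13, or -4.63). With Dex plus LPS the difference was -2.53 ± 0.12 and with Dex alone -2.20 ± 0.12. All 12 wild-type libraries were above all 12 Setd1aDel libraries. No Setd1aDel library of that experiment reached 1 TPM, so Egr1 entered these tests only through the wild-type groups, where it was high. In the 16 h experiment both genotypes were low in vehicle, at 0.122 to 0.179 TPM in wild-type and 0.0889 to 0.141 TPM in Setd1aDel cells (-0.04, adjusted p = 0.57). With LPS they were at 1.50, 1.69 and 1.66 against 0.887, 0.883 and 1.13 TPM (-0.41 ± 0.06, adjusted p = 1.4e-05, or -0.69 with a pseudocount of 0.1). In the IFNB1 experiment Egr1 was listed at 0 in all 6 wild-type libraries and at 0.2 to 0.6 TPM in the 6 Setd1aDel libraries, the opposite order, without a test because no library reached 1 TPM.

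Fos also changed order between experiments. In 16 h vehicle Setd1aDel cells were above wild-type cells (log2 difference 2.26 ± 0.07, adjusted p = 1.7e-12). Under LPS and Dex plus LPS of that experiment they were below (-0.91 ± 0.07 and -1.32 ± 0.07), as in all 4 treatments at 6 h (-0.62, -0.31, -0.43 and -0.25). The last of these, under Dex alone, was no longer called in the compared groups alone or without wild-type Dex replicate 2 (-0.18) or Setd1aDel Dex replicate 1 (-0.23). The 16 h wild-type vehicle libraries stood apart from the other vehicle libraries in the macrophage gene Lyz2, whose counts may be shared with its near-identical copy Lyz1. It averaged 1406 TPM there, 21387.5 TPM in 16 h Setd1aDel vehicle, and 7533 and 9847 TPM in the 6 h vehicle groups. At 16 h, Lyz2 was also lower in wild-type than in Setd1aDel cells with LPS (2208 against 9207 TPM) and with Dex plus LPS (1802 against 8704 TPM). The part of Lyz2 in the Fos result was not tested.

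By treatment, the members called between the RAW264.7 genotypes were 5 of 7 in 16 h vehicle (48.2% of all genes), 6 of 7 with LPS (59.9%) and 7 of 7 with Dex plus LPS (64.6%). At 6 h they were 5 of 7 in vehicle (22.2%), 4 of 7 with LPS (21.5%), 6 of 7 with Dex plus LPS (26.2%) and 5 of 7 with Dex alone (13.6%). The count with LPS at 6 h was 2 without 1 of the libraries named next, and the count with Dex alone was 2 in the compared groups alone. Atf3 was higher in Setd1aDel cells in all 3 groups at 16 h (0.51, 0.51 and 1.00), and at 6 h in vehicle (0.51) and with Dex alone (0.96 ± 0.15), while with LPS and Dex plus LPS it was 0.02 in both. Its call in 6 h vehicle was lost without wild-type replicate 1 (0.44) or Setd1aDel replicate 1 (0.42). Jun was higher at 16 h (0.53, 0.42 and 0.42), and at 6 h with Dex plus LPS (0.26 ± 0.07) and Dex alone (0.32 ± 0.07), both not called in the compared groups alone. Ier3 was lower at 16 h (-1.10 ± 0.10, -0.40 ± 0.10 and -0.40 ± 0.10, the last -0.24 after scaling) and higher at 6 h with Dex plus LPS (0.37 ± 0.09). With LPS at 6 h, Ier3 was lower (-0.31 ± 0.09), a call lost without wild-type LPS replicate 2 or 3 or Setd1aDel LPS replicate 2 (-0.29 to -0.30). Ier2 was higher at 16 h (0.29, 0.38 and 0.21) and lower at 6 h in vehicle and with Dex plus LPS (-0.43 ± 0.11 and -0.67 ± 0.11). With LPS at 6 h the Ier2 call (-0.32) was lost after scaling (-0.29) and without wild-type LPS replicate 1 or 3 or Setd1aDel LPS replicate 2 or 3 (-0.28 to -0.32). Junb was lower with Dex plus LPS in both experiments (-0.45 ± 0.10, or -0.29 after scaling, and -0.88 ± 0.09). Junb was also lower at 6 h in vehicle (-0.42 ± 0.09) and with Dex alone (-0.31 ± 0.09). The latter was no longer called after scaling (-0.27), in the compared groups alone, or without wild-type Dex replicate 1 or 2 or Setd1aDel Dex replicate 1 (-0.21 to -0.29).

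**Figure D4:**
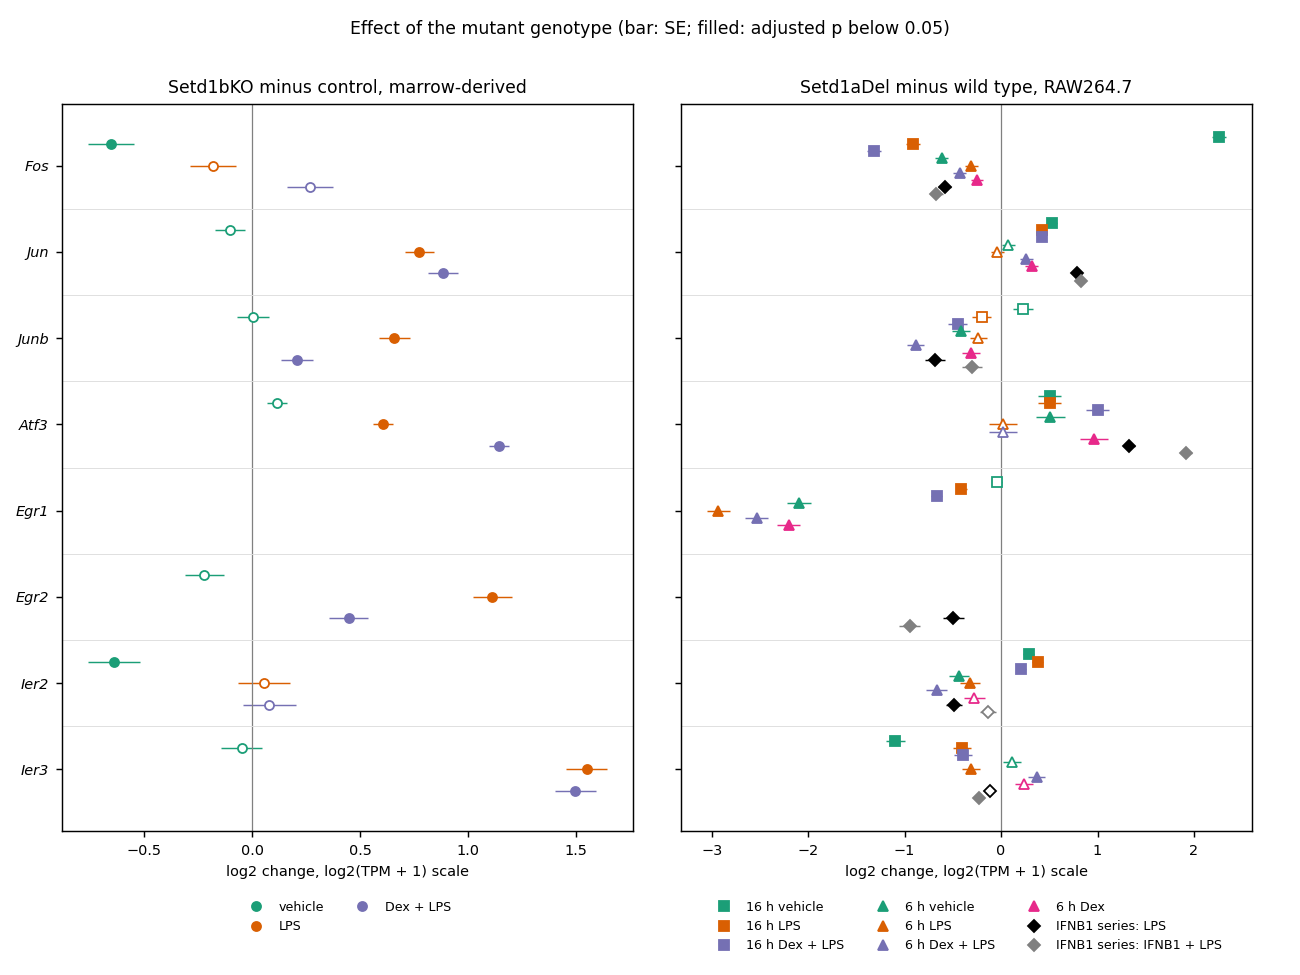
Log2 differences with SE of 8 members, Setd1bKO minus control in 3 treatments (left) and Setd1aDel minus wild type in 9 treatments (right; squares 16 h, triangles 6 h, diamonds the IFNB1 experiment), filled where the adjusted p was below 0.05. Egr1 lies at -2.10 to -2.93 in the 6 h groups against -0.04 to -0.67 at 16 h, and Fos lies at 2.26 in 16 h vehicle and below 0 in every other RAW264.7 group.

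A joint fit of both RAW264.7 Dex experiments tested how the deletion effect differed between them, 3 comparisons chosen after the values had been seen. The members called were 6 of 7 in vehicle (23.2% of all genes), 4 of 7 with LPS (41.3%) and 6 of 7 with Dex plus LPS (46.5%). For Egr1 the 16 h effect minus the 6 h effect was 2.05 ± 0.14, 2.52 ± 0.14 and 1.87 ± 0.14, and for Fos it was 2.88 ± 0.10, -0.60 ± 0.10 and -0.89 ± 0.10. Egr1 is among the members counted, but it entered this fit only through the groups in which it was high. No 6 h Setd1aDel library and no 16 h vehicle library reached 1 TPM for Egr1, so its calls are a description. Time in ethanol or Dex and the experiment itself cannot be told apart here. The LPS response also differed between the experiments, for 5 of 7 members in wild-type cells (37.7% of all genes) and 6 of 7 in Setd1aDel cells (49.6%). In wild-type cells Fos (2.01 ± 0.10), Ier3 (1.32 ± 0.13), Junb (1.30 ± 0.14), Ier2 (1.17 ± 0.13) and Atf3 (1.15 ± 0.20) had the larger LPS response in the 16 h experiment. The response to Dex under LPS differed for 4 of 7 in wild-type cells (13.5% of all genes) and 2 of 7 in Setd1aDel cells (19.2%). Atf3 in wild-type cells fell more at 16 h (-0.83 ± 0.20, adjusted p = 0.0038), and for Dusp1 the difference was -2.57, with 9.45 TPM against 9.90 TPM at 16 h and 78.1 TPM against 12.9 TPM at 6 h. In Setd1aDel cells the calls were Egr1 (-0.44 ± 0.14) and Ier2 (-0.36 ± 0.13). Egr1 was lost without 16 h LPS replicate 3, 16 h Dex plus LPS replicate 2 or 6 h LPS replicate 1 or 2 (-0.39 to -0.41). Ier2 was lost after scaling (adjusted p = 0.05) and without any of 9 of the 12 Setd1aDel libraries (-0.30 to -0.38): 16 h LPS replicate 2 or 3, each 16 h Dex plus LPS replicate, 6 h LPS replicate 2 or 3, or 6 h Dex plus LPS replicate 2 or 3. The wild-type difference for Jun (0.31 ± 0.09) was lost after scaling (0.24) and without 6 h wild-type Dex plus LPS replicate 3 (0.24).

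IFNB1 added to LPS raised Atf3 most among these genes. Atf3 was at 12.6, 12.0 and 11.0 TPM with LPS and 19.0, 22.0 and 21.8 TPM with IFNB1 plus LPS in wild-type cells (log2 change 0.77 ± 0.06, adjusted p = 5.3e-06). In Setd1aDel cells it was at 30.0, 32.8 and 31.1 TPM against 82.5, 81.0 and 82.1 TPM (1.36 ± 0.06, adjusted p = 2.1e-08). The responses differed by 0.59 ± 0.09 (adjusted p = 0.0028), 1 of 7 members called against 11.3% of all genes. In wild-type cells 3 of 7 were higher and 1 lower (33% of all genes called), and in Setd1aDel cells 5 were higher and 2 lower (54.1%). Fos was lower in both, at 19.1, 20.3 and 19.6 TPM against 28.0, 26.9 and 27.5 TPM in wild-type (-0.46 ± 0.07) and at 11.0, 12.6 and 12.4 TPM against 18.4, 19.4 and 16.3 TPM in Setd1aDel cells (-0.55 ± 0.07). Jun (0.24 ± 0.05 and 0.28 ± 0.05) and Ier3 (0.34 ± 0.05 and 0.22 ± 0.05) were higher in both. Scaling moved the Setd1aDel values of Jun to 0.47 and of Ier3 to 0.41. In Setd1aDel cells Junb (0.62 ± 0.10) and Ier2 (0.31 ± 0.08, or 0.50 after scaling) were also higher, and Egr2 was lower, at 0.7, 0.6 and 0.9 TPM against 1.6, 1.8 and 1.8 TPM (-0.66 ± 0.11, or -1.15 with a pseudocount of 0.1). The median change of all genes in Setd1aDel cells was -0.176. Fosb was between 0 and 1.1 TPM in all 12 libraries.

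In that experiment 6 of 7 members differed between the genotypes with LPS (42.6% of all genes) and 6 of 7 with IFNB1 plus LPS (54.2%). Atf3 (1.33 ± 0.06 and 1.92 ± 0.06) and Jun (0.78 ± 0.05 and 0.83 ± 0.05) were higher in Setd1aDel cells, with no overlap between libraries. The genotypes did not overlap for 52% of all genes with LPS and 58.9% with IFNB1 plus LPS. Fos (-0.58 ± 0.07 and -0.67 ± 0.07) and Egr2 (-0.50 ± 0.11 and -0.95 ± 0.11) were lower. Junb was lower with LPS (-0.69 ± 0.10). Ier2 was lower with LPS, at 53.9, 50.4 and 56.3 TPM against 80.3, 72.8 and 73.9 TPM (-0.49 ± 0.08, adjusted p = 0.00071), and was not called with IFNB1 plus LPS (-0.13, adjusted p = 0.2). Ier3 was not called with LPS (-0.11, adjusted p = 0.1). With IFNB1 plus LPS, Junb (-0.30 ± 0.10) lost its call after scaling (-0.16), in the compared groups alone, and without wild-type replicate 1 (-0.19) or Setd1aDel replicate 3 (-0.19), and Ier3 (-0.23 ± 0.05) lost its call after scaling (-0.09).

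**Figure D5:**
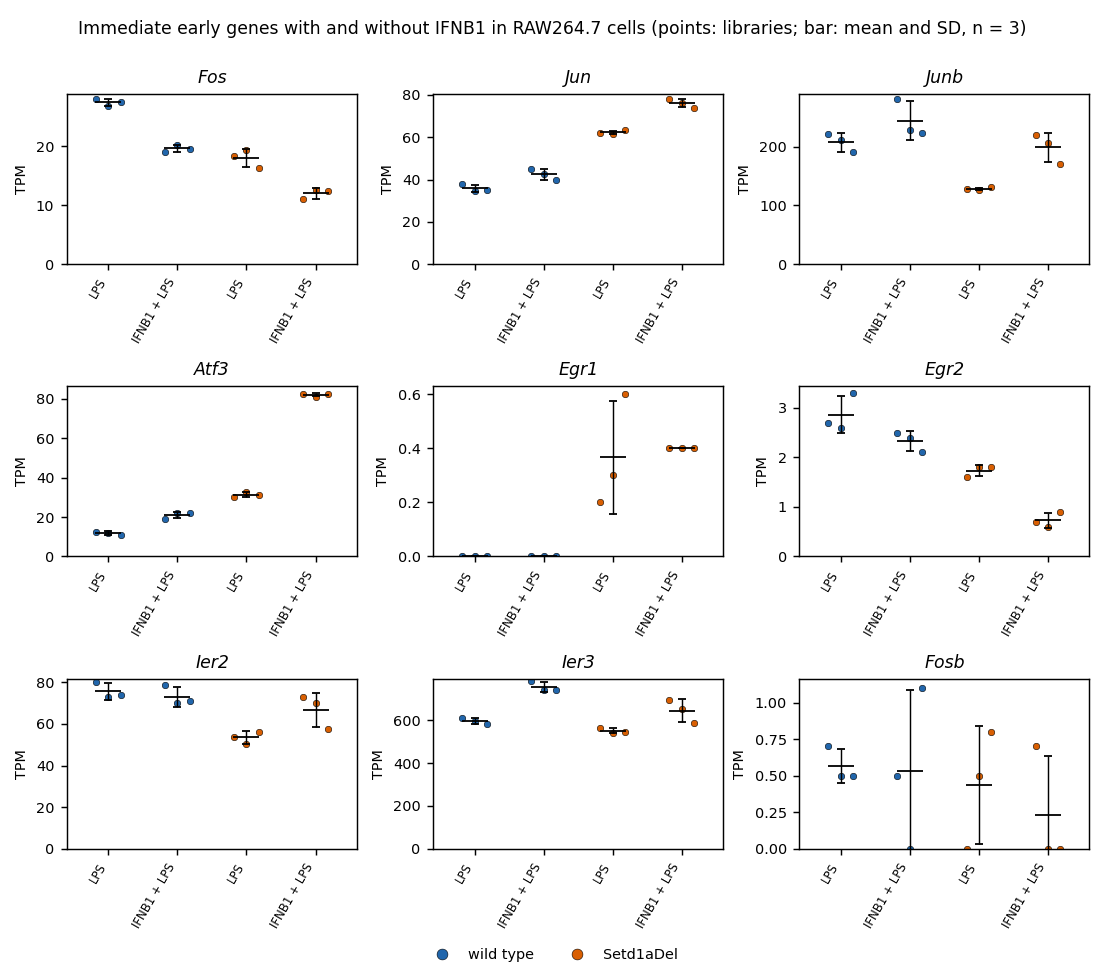
TPM of all 9 members in RAW264.7 cells with LPS or IFNB1 plus LPS, 1 panel per gene, wild type in blue and Setd1aDel in orange, with 3 libraries per group as points and the mean and SD as bars. Atf3 reaches 81.0 to 82.5 TPM in Setd1aDel cells with IFNB1, and Egr1 and Fosb stay at or below 1.1 TPM in every library.

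Related genes of the same pathways were described by lists chosen with earlier results known. Among 26 tested other immediate early genes, 16 were higher and 7 lower with LPS in control marrow-derived cells, where 20.6% of all genes were higher and 64.7% lower, with a median change of 0.79 against -0.49 for all genes. In wild-type RAW264.7 cells 19 of 22 were higher at 16 h (median 1.40 against -0.38) and 19 of 23 at 6 h (0.99 against -0.24). The largest changes were in Tnfaip3 (447 against 13.7 TPM in controls), which ends NF-kB signalling, and Nfkbiz, an inducible NF-kB cofactor (126 against 3.22 TPM). Other AP-1, ATF and EGR factors were mixed in control marrow-derived cells, with 9 of 19 higher and 9 lower against the same shares of all genes, led by Batf2 (58.4 against 2.10 TPM) and Batf (183 against 12.6 TPM). Relatives of the falling members Fos and Jun thus rose in the same libraries. Of 22 tested genes that signal through serum response factor and MAP kinases, 5 were higher and 11 lower there. Before scaling this was a smaller share lower than over all genes. With scaling, the share of higher among called genes went from 24.2% to 50.1%, and the lists were not counted with scaling. Among the lower was Mrtfa, a coactivator of serum response factor (5.83 against 26.9 TPM). Mapkapk2, a kinase that stabilises inflammatory messenger RNAs, was higher (620.3 against 90.0 TPM).

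Dex under LPS lowered 12 and raised 4 of 22 other immediate early genes in wild-type RAW264.7 cells at 16 h, and lowered 10 and raised 4 of 23 at 6 h, whereas in control marrow-derived cells it raised 9 and lowered 7 of 26. Over all genes, 12.3% were lower and 35.2% higher at 16 h, and 10.6% and 14.7% at 6 h. In control marrow-derived cells the shares were 15.2% and 44.8%. Before scaling, the list thus held a smaller share raised than all genes in the marrow-derived cells and at 16 h. With scaling, the share of higher among called genes went from 74.7% to 43.4% in control marrow-derived cells. It went from 74.1% to 45.9% at 16 h, and the list was not counted with scaling. The raised genes included the known glucocorticoid targets Per1 in marrow-derived cells (21.9 against 1.12 TPM) and Sgk1 in RAW264.7 cells (19.2 against 2.13 TPM at 16 h). Zfp36, which destabilises AU-rich messenger RNAs, was lower with Dex in control marrow-derived cells (70.8 against 202 TPM) and in wild-type RAW264.7 cells at 16 h (268 against 522 TPM). In the list of the integrated stress response, a pathway that induces Atf3, 8 of 8 genes were higher with LPS in wild-type RAW264.7 cells at 16 h and 6 of 8 were lower with Dex, against 17.4% and 12.3% of all genes. With IFNB1, 9 of 9 were higher in wild-type and 8 of 9 in Setd1aDel cells, with medians of 0.32 and 0.63 against -0.09 and -0.18 for all genes, of which 9.5% and 10.5% were higher. The same list held 6 higher and 1 lower of 8 between the genotypes with LPS at 16 h, against 17.5% and 42.4% of all genes, among them Ddit3 (45.3 against 17.3 TPM), which encodes a stress-induced partner of Atf3. This list is not described here for marrow-derived cells or the 6 h experiment, and its part in the Atf3 results was not tested.

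As a description over the 14 group means of the RAW264.7 Dex experiments, which share libraries and treatments, Junb correlated with Ier2 (r = 0.934) and Ier3 (r = 0.906), and Fos with none of the other members above r = 0.425. Among 8007 genes with a mean of at least 5 TPM, the pattern of Ier3 was most like those of Dusp5 (r = 0.981), Nlrp3 and Il27, and that of Junb most like Tmed5 (0.969), Ppp1r11 and Cebpd. Atf3 was most like Arid5a (0.922), Ier2 like Coq10b (0.948), Jun like Rmdn2 (0.948) and Egr1 like Taf7 (0.893). Fos had the least similar neighbours, led by Gm10131 (0.812). Over the 6 group means of marrow-derived cells Fos and Junb ran in opposite directions (r = -0.965), while Junb and Ier3 ran together (r = 0.969).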

How the data were processed

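Messenger RNA of 72 libraries was sequenced from stranded TruSeq libraries, per the labels. The submitters' processing notes name Salmon 0.10.2, DESeq2 and R 3.6.0, and GRCm38.p6. The authors' deposited tables hold TPM per gene, and a log2 fold change with adjusted p-values for some comparisons. The unit of the IFNB1 table was judged from its values. The tables were deposited in part: 9179 genes are listed for marrow-derived cells and 8983 for RAW264.7 cells with Dex, so that low genes are not analysed here. Members and lists were chosen with earlier results of these data known.

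From these values log2(TPM + 1) was computed and fitted with limma 3.58.1 in R 4.3.3, with 1 mean per group and a trend, in each experiment apart and, for 16 h against 6 h, in 1 joint fit. A gene was tested where 3 or more libraries of an experiment reached 1 TPM (9159 in marrow-derived cells, 8964 at 16 h, 8981 at 6 h, 10923 with IFNB1). Genes were called at a two-sided adjusted p under 0.05. As alternatives, the pseudocount was set to 0.1, the filter was dropped, libraries were scaled by the median of ratios, replicate number was added as a block, only the compared groups were fitted, and each library was left out in turn. The text names the 9 members, up to 3 called genes per list with the largest changes and at least 5 TPM, 5 control genes, and the 3 genes most like each member. Lyz2 and the other cell type markers described by level were named after their values were seen. The method was tested on simulated data. Sequences are from RefSeq (GRCm38.p6) and gene positions from GENCODE vM21.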

Additional observations from a re-analysis of the deposited data

Results flagged for a closer look

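Each group holds 3 libraries, so single libraries far from their group were not tested. The values here are differences between 2 responses, on the log2(TPM + 1) scale, each tested as such with limma and past an adjusted p of 0.05. Some of these calls were lost with scaling, with a pseudocount of 0.1 or on leaving out 1 library, as given above. The values in marrow-derived macrophages compare cells labelled Setd1bKO with controls. For the response to LPS the difference was 1.60 for Ier3, 1.33 for Egr2, 0.88 for Jun, 0.70 for Ier2, 0.65 for Junb, 0.49 for Atf3 and 0.47 for Fos. For the response to Dex under LPS it was 0.54 for Atf3, -0.66 for Egr2 and -0.45 for Junb.

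Between Setd1aDel and wild-type RAW264.7 cells of the 16 h experiment, the LPS response differed by -3.17 for Fos, 0.69 for Ier3, -0.43 for Junb and -0.37 for Egr1, and the Dex response by -0.41 for Fos. At 6 h the LPS response differed by -0.84 for Egr1, and the Dex response by 0.68 for Ier3 and -0.65 for Junb. The response to IFNB1 differed by 0.59 for Atf3.

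Other differences set the 16 h experiment against the 6 h experiment, where pre-treatment time and experiment cannot be told apart. The LPS response of wild-type cells differed by 2.01 for Fos, 1.32 for Ier3, 1.30 for Junb, 1.17 for Ier2 and 1.15 for Atf3. In Setd1aDel cells it differed by 2.44 for Ier3, 1.64 for Atf3, 1.15 for Ier2, 0.70 for Egr1, 0.69 for Junb and -1.48 for Fos. The Dex response of wild-type cells differed by -0.83 for Atf3, 0.61 for Ier3, -0.54 for Ier2 and 0.31 for Jun, and that of Setd1aDel cells by -0.44 for Egr1 and -0.36 for Ier2. The difference between Setd1aDel and wild-type cells itself changed in vehicle by 2.88 for Fos, 2.05 for Egr1, -1.21 for Ier3, 0.72 for Ier2, 0.64 for Junb and 0.46 for Jun. With LPS it changed by 2.52 for Egr1, 0.70 for Ier2, -0.60 for Fos and 0.46 for Jun. With Dex plus LPS it changed by 1.87 for Egr1, 0.98 for Atf3, -0.89 for Fos, 0.88 for Ier2, -0.76 for Ier3 and 0.43 for Junb. Egr1 entered these comparisons only through the groups in which it was high.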

How the results depend on the processing

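Of 315 results on single members, 310 kept direction and call with a pseudocount of 0.1, 315 without a filter and 290 with median-of-ratios scaling, as did 287 of 306 in the compared groups alone and 2501 of 2604 on leaving out 1 library. Scaling reversed Egr2 (0.0241) and Atf3 (0.19) for LPS in cells labelled Setd1bKO, Fos (0.22) for LPS in wild-type cells at 6 h, and Jun (0.0123, from -0.30) for Dex plus LPS against vehicle in control marrow-derived cells. The count of members called for Setd1aDel against wild type under Dex alone went from 5 to 2 in the compared groups alone. For the difference in LPS response at 6 h it went from 1 to 0 with a pseudocount of 0.1 and to 3 in the compared groups alone, and for that in IFNB1 response from 1 to 2 with a pseudocount of 0.1. For the Dex response of Setd1aDel cells at 16 h minus 6 h it went from 2 to 1 with scaling and in the compared groups alone. The causes were not tested.

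Leaving out 1 library in turn gave 2 to 4 members called for Dex under LPS in wild-type cells at 6 h, 2 to 4 for Setd1aDel against wild type with LPS at 6 h and 3 to 6 with Dex alone. It gave 0 to 2 for the difference in Dex response at 16 h, 1 to 2 for that in LPS response at 6 h, 0 to 1 for that in response to Dex alone, 1 to 4 for that in IFNB1 response, and 0 to 2 for the Dex response of Setd1aDel cells at 16 h minus 6 h.

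The deviations of same-numbered libraries had correlations of -0.322 to 0.278. Libraries that correlated best with their own number were 10 of 18 in marrow-derived cells, 1 of 18 at 16 h, 10 of 24 at 6 h and 4 of 12 with IFNB1. No pairing was assumed, and these values cannot exclude one. With a replicate block 310 of 315 member results kept direction and call, and the count for the Dex response of Setd1aDel cells at 16 h minus 6 h was 1. Junb with Dex plus LPS in cells labelled Setd1bKO had an adjusted p of 0.052 with the block. Depth is unknown, so the precision of members near or below 1 TPM, such as Egr1, cannot be given.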
